A study of Mus musculus with 12 samples.

Results

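The cytochrome P450 genes of the families Cyp1, Cyp2 and Cyp3, without the subfamily Cyp2c, were followed in mouse liver RNA. Genes were taken by symbol from the deposited table of 24532 genes. The symbol had to begin with Cyp1, Cyp2 or Cyp3 and a subfamily letter, and pseudogenes marked -ps were left out. Of 45 such genes, the 32 with at least 10 counts in at least 4 of the 12 libraries were kept. Just inside this limit stood Cyp2g1 with 8 such libraries, all of them KO or KO_drug, Cyp1b1 and Cyp2s1 with 9, and Cyp3a16 with 11. Just outside it stood Cyp2b23, Cyp2j8 and Cyp3a41b with 3 each. Of the remaining 10, Cyp2b9, Cyp2b13 and Cyp3a57 had 2 such libraries, and Cyp2b19, Cyp2d34, Cyp2j11, Cyp2j12, Cyp2j13, Cyp2t4 and Cyp2w1 had 0. All 32 genes passed the filter on low counts used for the tests. Cyp2d13, kept because its symbol lacks -ps, is a transcribed pseudogene in RefSeq.

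The 12 livers came from mice of the strain C57BL/6x129S6/SvEv aged 20 wk, 4 per group. Het mice, the controls, carry the Atp7b knockout allele in the heterozygous state, KO mice are Atp7b-/-, and KO_drug mice are Atp7b-/- and were fed an agonist of LXR, the liver X receptors that sense oxysterols. Neither the sex nor the missing part of Atp7b is in the labels used here, nor which agonist was fed, how much or how long, and they name no wild-type group and no agonist-fed Het group. The libraries are numbered Het 1 to 4, KO 2, 4, 5 and 6, and KO_drug 1 to 4, and values per library below follow that order.

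P450 enzymes are heme proteins of the endoplasmic reticulum that oxidise drugs, toxins, steroids and fatty acids with electrons passed on by Por and cytochrome b5. In liver, Cyp1a genes are classic targets of the aryl hydrocarbon receptor (Ahr), Cyp2b10 of the constitutive androstane receptor (CAR, gene Nr1i3) and Cyp3a11 of the pregnane X receptor (PXR, gene Nr1i2). Several mouse members are sex-biased under the control of growth hormone: Cyp2d9 is a male-type gene, and Cyp2a4, Cyp2b9, Cyp2b13, Cyp3a41a, Cyp3a41b, Cyp3a44 and Cyp3a16 are female-type or perinatal genes. Atp7b exports copper from hepatocytes, and its loss leads to copper overload of the liver.

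Sequence context is given first for the neighbours Cyp1a1 and Cyp1a2, whose changes had opposite signs, and for Cyp2b10 and Cyp3a11, the CAR and PXR targets that were higher in KO_drug than in KO. The 250 bases before each RefSeq start (GRCm38.p6, the assembly called mm10 in the submitters' notes) are printed 5′ to 3′ on the gene's strand. Capitals mark matches on either strand to GCGTG, the core bound by Ahr with Arnt (it reads CACGC when it lies on the other strand), to AGGTCA, the hexamer bound by nuclear receptors, to TATAAA, the TATA box, and to TTCNNNGAA, the STAT5 motif. The window of Cyp1a1 (chr9:57697363-57697612, plus strand) lies inside the RefSeq gene span, which begins further upstream at 57687928; the other windows are chr9:57683656-57683905 (minus strand), chr7:25897408-25897657 (plus strand) and chr5:145879855-145880104 (minus strand).
Cyp1a1: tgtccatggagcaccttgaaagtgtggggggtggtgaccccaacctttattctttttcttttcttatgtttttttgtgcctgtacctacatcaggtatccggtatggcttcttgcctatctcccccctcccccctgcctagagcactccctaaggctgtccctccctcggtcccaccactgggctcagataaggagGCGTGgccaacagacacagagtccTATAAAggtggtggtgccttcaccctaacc
Cyp1a2: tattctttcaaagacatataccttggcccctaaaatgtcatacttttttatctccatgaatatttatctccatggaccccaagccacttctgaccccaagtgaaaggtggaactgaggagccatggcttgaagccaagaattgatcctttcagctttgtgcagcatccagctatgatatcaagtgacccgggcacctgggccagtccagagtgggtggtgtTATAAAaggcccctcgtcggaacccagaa
Cyp2b10: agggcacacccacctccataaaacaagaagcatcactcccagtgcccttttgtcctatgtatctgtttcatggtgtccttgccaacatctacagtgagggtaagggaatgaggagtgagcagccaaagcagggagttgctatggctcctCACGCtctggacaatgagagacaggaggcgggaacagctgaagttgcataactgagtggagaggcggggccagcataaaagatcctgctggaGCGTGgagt
Cyp3a11: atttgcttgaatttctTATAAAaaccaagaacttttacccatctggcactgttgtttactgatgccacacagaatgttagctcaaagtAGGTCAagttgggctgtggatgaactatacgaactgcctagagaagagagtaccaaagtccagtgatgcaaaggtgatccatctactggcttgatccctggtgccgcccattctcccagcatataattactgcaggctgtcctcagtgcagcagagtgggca
Cyp1a1 holds GCGTG at position -54 from its start and TATAAA at -30, whereas Cyp1a2 holds TATAAA at -29 and no GCGTG in this window. Cyp2b10 holds the GCGTG core at -101 and -9, and Cyp3a11 holds AGGTCA at -162 and TATAAA at -234. RefSeq promoters were matched for 27 of the 32 genes (28 windows). TATAAA was found in 60.7% of these windows and in 12.4% of all 32851 mouse promoter windows of the same length. Matches anywhere in the window were counted, such as that of Cyp3a11 at -234, so this is not a share of promoters with a TATA box. AGGTCA was found in 25.0% against 14.0%, GCGTG in 14.3% against 28.2%, and TTCNNNGAA in 0 against 7.02%. These are matches of letters in short windows and show neither binding nor its absence.

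The families hold near-identical copies, and how reads shared by 2 copies were counted is not stated in the sources used here. The coding sequences of Cyp2a4 and Cyp2a5 (GENCODE M21) are 98.4% identical, with 23 differences over 1482 bases, and the stretch from coding base 596 to 655 holds 4 of them, shown in capitals.
Cyp2a4: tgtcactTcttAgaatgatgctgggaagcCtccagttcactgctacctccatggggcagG
Cyp2a5: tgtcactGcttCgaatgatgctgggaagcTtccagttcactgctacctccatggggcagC
Cyp3a41a and Cyp3a41b differ at 2 of 1512 coding bases, Cyp3a25 and Cyp3a59 are 97.5% identical, and Cyp2a12 and Cyp2a22 are 97.0% identical. The promoter windows of Cyp2a4 and Cyp2a5 are 97.6% identical and those of Cyp3a25 and Cyp3a59 94.8%. Values of single members of these pairs are therefore uncertain. Sums are given beside them for Cyp2a4 with Cyp2a5, Cyp3a25 with Cyp3a59 and Cyp2a12 with Cyp2a22. The genes lie mostly in clusters: Cyp2a, Cyp2b, Cyp2f2, Cyp2g1 and Cyp2s1 on chromosome 7, Cyp2d on chromosome 15, Cyp3a on chromosome 5, Cyp2j on chromosome 4 and Cyp1a on chromosome 9. Cyp2a4, Cyp2a12, Cyp2a22, Cyp2d11 and Cyp2g1 overlap another RefSeq gene, and their counts carry that limit too.

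Libraries held 16535938 to 28329751 counts. Atp7b itself stood at 9.90, 13.1, 12.2 and 16.2 CPM (counts scaled to the TMM-adjusted library size) in Het, at 1.76, 1.68, 2.71 and 2.20 in KO and at 1.31, 3.49, 1.27 and 2.81 in KO_drug, so every library lay on the side its label gives. The hepatocyte product Alb was abundant in every library, at 42372 to 82160 CPM in Het, 19024 to 39016 in KO and 32448 to 47798 in KO_drug. Within the KO group, KO 5 and KO 6 stood apart: Xist, the RNA of the inactive X chromosome, stood at 81.7 and 17.8 CPM there and at or below 0.425 in the other 10 libraries. The Y-linked gene Ddx3y stood at 0.379 CPM in KO 5, at 64.4 in KO 6 and at 79.4 to 111 elsewhere. For this reason, results are also given for KO 2 and KO 4 alone as the KO group. Het 1 was the lowest Het library for 21 of the 32 genes, and its TMM factor was 0.984 against 0.768 to 0.872 in the other Het libraries.

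In untreated knockout liver the P450 genes did not move together: Cyp2e1, Cyp2f2, Cyp2j5 and Cyp3a25 fell, Cyp2a4, Cyp2a5, Cyp2s1, Cyp2d12 and the low Cyp1a1 rose, and the abundant Cyp3a11, Cyp2d10 and Cyp2a12 were not called. With the agonist, Cyp2e1, Cyp2j5 and Cyp3a25 were higher than in untreated KO, and Cyp3a11 rose above both other groups. Cyp2b10 was called higher than in both, although KO_drug 2 lay within the range of Het and of KO. Cyp1a2 was called higher than in KO, but its groups overlapped and the call was lost with total counts. Cyp2a4, Cyp2a5 and Cyp2a22 stood above Het in both knockout groups, with counts that are uncertain for near-identical copies (above). Tests came from 1 edgeR quasi-likelihood fit over all 12 libraries, with p-values adjusted by Benjamini-Hochberg over 13379 tested genes. Called genes are those with an adjusted p under 0.05. All adjusted p-values and log2 changes (± SE) below come from that fit unless another is named. Of the 32 genes, 9 were called higher and 11 lower in KO than in Het, together 62.5%, where 40.7% of all tested genes were called (23% higher and 17.7% lower). In KO_drug against KO, 10 were higher and 3 lower (40.62% against 19.8% of all genes, 8.8% higher and 11% lower), and in KO_drug against Het, 8 were higher and 5 lower (40.62% against 21.4%, 13% higher and 8.45% lower). Cyp2g1 and Cyp2s1 are among the genes called higher than Het in both knockout groups. Cyp2g1 met the count limit only in KO and KO_drug libraries, and Cyp2s1 in those and, within Het, in Het 1 alone. The counts of higher genes against Het therefore include members kept through the groups where they were high. Counted without the test, the Het and KO libraries did not overlap for 15 genes (46.88%, against 39.3% of all genes), those of KO_drug and KO for 10 (31.25% against 23.9%) and those of KO_drug and Het for 9 (28.12% against 24.6%). Any pair of these comparisons shares a group of libraries, so their values are not independent. With KO 2 and KO 4 alone as the KO group, the counts in KO vs Het were 8 higher and 8 lower (19.5% and 15.6% of all genes in that fit). They were 9 and 2 in KO_drug vs KO (8.54% and 10.8% of all genes), and in KO_drug vs Het 10 and 4 (12.1% and 8.41%). In bulk tissue, fewer cells of a type and less RNA per cell cannot be told apart.

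**Figure D1:**
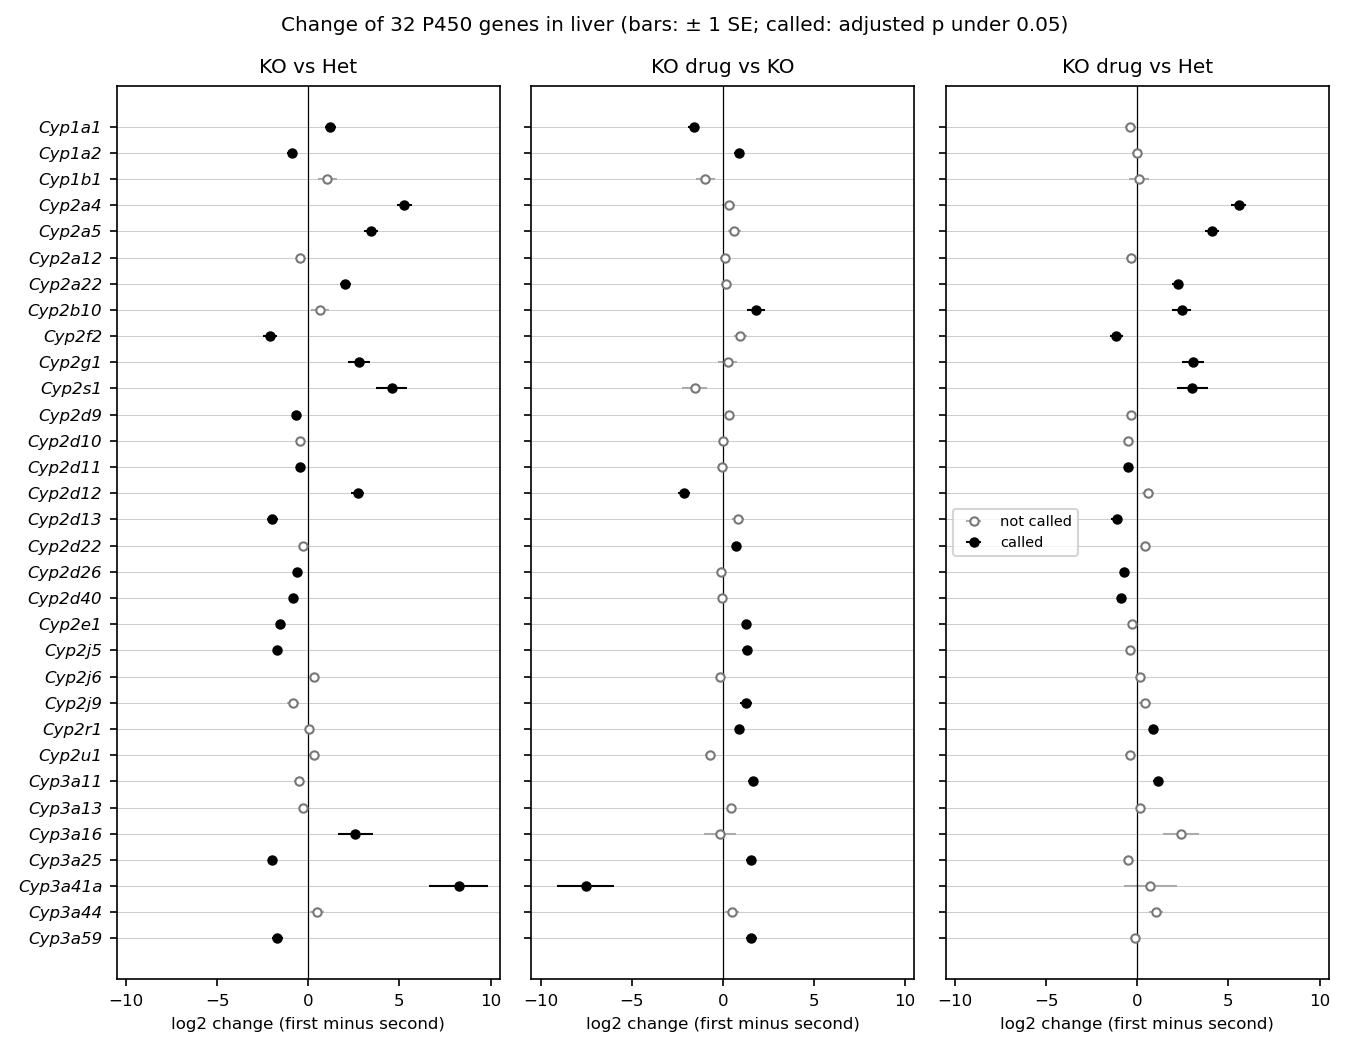
Log2 change (x axis, first group minus second) of each of the 32 P450 genes (y axis) in the 3 comparisons, with bars of 1 SE and filled points for adjusted p under 0.05. The changes of Cyp2a4, Cyp2s1 and Cyp3a41a reach to the right in KO vs Het, the 11 genes called lower lie between -0.46 and -2.11, and Cyp3a41a lies at -7.53 in KO_drug vs KO.

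The split between higher and lower depends on the scaling. The median log2 change of all genes in KO vs Het was 0.02 with TMM scaling and 0.54 with total counts, and that of the 32 genes was -0.28 and 0.27. With total counts, 15 of the 32 genes (46.88%) were higher and 6 lower in KO vs Het, where 51.5% of all genes were higher and 3.44% lower, so the share higher was not above that of all genes. Between KO_drug and KO 7 were higher and 4 lower, against 2.68% and 29.1% of all genes, and between KO_drug and Het 10 and 3, against 18.2% and 3.73%. Tested on the deposited FPKM with limma, 15 were higher and 6 lower in KO vs Het (53.4% and 3.39% of all genes), 6 and 6 in KO_drug vs KO (2.77% and 33%), and 9 and 2 in KO_drug vs Het (17.3% and 3.87%). By their median the 32 stood lower in KO than all genes under both scalings. A change of scaling shifts all genes by nearly the same amount, so the agreement of the scalings adds no support. As a share of all counts, the 32 genes took 1.77% ± 0.287 (SD, n = 4) in Het, 1.68% ± 0.173 in KO and 2.66% ± 0.282 in KO_drug.

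Markers of other liver cells moved with these comparisons. In KO vs Het, 5 of 8 hepatocyte markers were lower (Alb, Apoa1, Apoc3, Hnf4a and Ttr) and 7 of 7 macrophage markers were higher, with C1qc at log2 1.67 ± 0.25, Cd68 at 1.5 ± 0.22 and C1qb at 1.68 ± 0.26. The summed macrophage markers ranged from 302 to 401 CPM in Het, from 643 to 1146 in KO and from 292 to 522 in KO_drug. T and NK cell markers were higher in KO for 5 of 6 tested genes (Gzmb, Cd3d, Cd3g, Cd8a and Nkg7; sums of 2.96 to 5.30 CPM in Het, 7.21 to 21.3 in KO and 3.02 to 6.40 in KO_drug). Cholangiocyte markers were higher for 2 of 6 genes (Spp1 and Epcam; 19.0 to 26.1, 51.6 to 143 and 20.5 to 31.4 CPM), and stellate cell markers for 3 of 7 (Col1a1, Col1a2 and Col3a1; 54.8 to 101, 96.8 to 205 and 43.2 to 72.3 CPM). Endothelial markers were higher for 3 of 6 genes (Tek, Pecam1 and Lyve1), with overlapping sums of 229 to 365 CPM in Het and 300 to 340 in KO. Summed hepatocyte markers ranged from 89360 to 154800 CPM in Het, from 58930 to 88860 in KO and from 80550 to 99290 in KO_drug. None of these markers was at 0 in all libraries of a group. Compared with KO, KO_drug had 6 of 7 macrophage markers lower, 3 of 6 of T and NK cells (Cd3d, Cd3g and Cd8a), 2 of 6 of cholangiocytes (Spp1 and Epcam), 4 of 7 of stellate cells (Col1a1, Col1a2, Col3a1 and Pdgfrb) and 2 of 6 of endothelium (Tek and Pecam1). In KO_drug vs Het, edgeR called 1 of these markers (Hnf4a, lower). With total counts, 2 of the 8 hepatocyte markers (Alb and Hnf4a) were lower in KO, and with KO 2 and KO 4 only 6 were lower there and 6 of 7 macrophage markers higher. The part of cell composition in the P450 changes was not tested.

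Between genes, levels were compared per length with the deposited FPKM. In Het, Cyp2e1 led with 3279 FPKM ± 148 (SD, n = 4), followed by Cyp3a11 with 1513 ± 552 and Cyp2d9 with 625 ± 108. The next genes, Cyp2f2 (362 ± 107), Cyp2d10 (343 ± 74.8) and Cyp2a12 (286 ± 79.1), did not differ beyond their spread. In KO, Cyp2e1 (1615 ± 86.5) and Cyp3a11 (1580 ± 157) stood level within their spread, and Cyp2a5 (970 ± 147) and Cyp2a4 (716 ± 314) came next, up from places 11 and 19 in Het. In KO_drug the order by mean was Cyp3a11 with 3895 ± 738, Cyp2e1 with 3044 ± 812, Cyp2a5 with 1185 ± 269 and Cyp2a4 with 703 ± 61.1. Cyp3a11 and Cyp2e1 did not differ there beyond their spread, and in KO_drug 2 Cyp2e1 (3164 FPKM) stood above Cyp3a11 (2923). At least 100 FPKM was reached by 10 genes in Het, 11 in KO and 12 in KO_drug, while 6, 3 and 4 genes stayed under 1 FPKM. Among the 11 in KO, Cyp3a41a was there through KO 5 (626 FPKM) and KO 6 (143), since KO 2 and KO 4 stood at 0.597 and 9.69.

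Cyp1a1 and Cyp1a2 changed in opposite directions in KO. Cyp1a1, an inducible enzyme that oxidises polycyclic aromatic compounds, stood at 2.42, 2.34, 2.38 and 3.42 CPM in Het, at 4.78, 7.56, 3.70 and 8.40 in KO and at 1.31, 2.24, 2.70 and 1.86 in KO_drug. All 4 KO libraries lay above every Het and every KO_drug library. Its level in KO was 2.30-fold that in Het (log2 1.20 ± 0.30, adjusted p = 0.00592) and it was lower in KO_drug than in KO (log2 -1.59 ± 0.30, adjusted p = 0.00413). Cyp1a2, the constitutive Cyp1a enzyme of adult liver, stood at 467, 880.2, 910.4 and 635 CPM in Het, at 499, 346, 294 and 403 in KO and at 407, 788, 898 and 729.8 in KO_drug. Het 1 and KO_drug 1 lay within the range of KO, so the groups overlapped. It was called lower in KO (log2 -0.91 ± 0.27, adjusted p = 0.0163) and higher in KO_drug than in KO (log2 0.87 ± 0.27, adjusted p = 0.0373). Both Cyp1a2 calls were lost with total counts (log2 -0.36, adjusted p = 0.19, and 0.53, adjusted p = 0.0887), and with KO 2 and KO 4 only (adjusted p = 0.0898 and 0.15). The second was also lost without any 1 of KO 4, KO 5, KO 6, KO_drug 2, KO_drug 3 or KO_drug 4 (adjusted p from 0.067 to 0.109). The ratio of Cyp1a2 to Cyp1a1 in FPKM was 266 to 556 in Het, 64.0 to 149 in KO and 444 to 564 in KO_drug, so in KO it lay below both other groups in every library. Cyp1b1, an Ahr-responsive gene with low levels in liver, ranged from 0.208 to 0.876 CPM in Het, from 0.613 to 1.96 in KO and from 0.276 to 0.706 in KO_drug and was not called in any comparison, but was higher in KO vs Het with total counts (log2 1.53, adjusted p = 0.0379).

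Ahr was not called in any comparison and stood at 49.0 ± 17.9 CPM in Het, 48.1 ± 11.6 in KO and 41.2 ± 6.59 in KO_drug (SD, n = 4). The list of Ahr targets outside the P450 genes held 6 genes, but Ahrr and Aldh3a1 were too low to be tested, at most 0.498 and 0.127 CPM. Of the 4 tested genes, 3 were higher in KO than in Het. They were the quinone reductase Nqo1 (log2 2.57 ± 0.32, adjusted p = 5.87e-05), which is also a target of Nfe2l2, and the glucuronosyltransferases Ugt1a6a (log2 0.57 ± 0.21) and Ugt1a6b (0.60 ± 0.22). Against Het, edgeR called Nqo1 in KO_drug (log2 1.72 ± 0.31, adjusted p = 0.00162). The median log2 change of these 4 genes was 0.58 for KO against Het, 0.02 for KO_drug against KO and 0.60 for KO_drug against Het, where all genes had 0.02, -0.02 and 0. DESeq2 and total counts both called Nqo1, Ugt1a6a and Ugt1a6b higher in KO_drug vs Het and Nqo1 lower in KO_drug vs KO. In KO vs Het with KO 2 and KO 4 only, Nqo1 alone was called higher. Ugt1a6a and Ugt1a6b are forms of the shared Ugt1a locus that differ in their first exon, and their counts are uncertain in the same way as the P450 pairs.

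Cyp2e1, the enzyme that oxidises ethanol, small solvents and acetaminophen, stood at 6942, 8911, 9657 and 8144 CPM in Het, at 2736, 2573, 2850.3 and 3216 in KO and at 4347, 7162, 7253 and 8696 in KO_drug. The KO libraries lay in a narrow band below every library of the other groups, and Het and KO_drug overlapped. Cyp2e1 was 2.96-fold lower in KO (log2 -1.56 ± 0.22, adjusted p = 0.00015) and higher again in KO_drug (log2 1.27 ± 0.22, adjusted p = 0.0025); against Het, KO_drug differed by log2 -0.29 ± 0.21 (adjusted p = 0.367). Cyp2j5, an epoxygenase of arachidonic acid in liver and kidney, showed 803, 1202, 1211 and 944 CPM in Het, 367, 231, 329 and 346 in KO and 539, 1053, 935 and 641 in KO_drug. Here too the KO libraries lay below all others. The log2 changes were -1.71 ± 0.24 in KO vs Het (adjusted p = 0.000149) and 1.31 ± 0.23 in KO_drug vs KO (adjusted p = 0.0031).

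Cyp3a25 and Cyp3a59, a pair of near-identical Cyp3a genes on chromosome 5 (145977192 to 146009644 and 146079208 to 146114978), shared this course. Cyp3a25 stood at 361, 754, 797 and 592 CPM in Het, at 167, 148, 158 and 153 in KO and at 420.4, 302, 515 and 558 in KO_drug. Cyp3a59 stood at 27.5, 94.6, 81.1 and 63.0 CPM in Het, at 18.8, 22.2, 22.3 and 18.8 in KO and at 64.4, 44.7, 59.5 and 73.2 in KO_drug. For both genes every KO library lay below every other library, and Het 1 was the lowest Het library. Cyp3a25 was 4.0-fold lower in KO (log2 -2.0 ± 0.24, adjusted p = 5.73e-05) and Cyp3a59 3.24-fold lower (adjusted p = 0.000633). In KO_drug vs KO they were higher by log2 1.52 ± 0.24 and 1.56 ± 0.29 (adjusted p = 0.0018 and 0.00375). Their sum was 692 CPM ± 225 in Het, 177 ± 7.43 in KO and 510 ± 124 in KO_drug. If each shared read was counted for a single gene, this sum does not depend on how reads were split between the pair.

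Cyp2f2, known for naphthalene oxidation in lung and found in periportal hepatocytes, stood at 495, 1349, 1234 and 912 CPM in Het, at 263, 99.3, 227 and 334 in KO and at 316, 577, 494 and 404 in KO_drug. Het and KO did not overlap, and KO 4 was the lowest library. It fell by 2.11 ± 0.37 on the log2 scale in KO (adjusted p = 0.000742) and was also called lower in KO_drug than in Het (log2 -1.16 ± 0.36, adjusted p = 0.0359). The latter call was lost without any 1 of Het 2, Het 3, Het 4, KO_drug 1, KO_drug 3 or KO_drug 4 (adjusted p from 0.0582 to 0.101). KO_drug vs KO was not called (log2 0.96, adjusted p = 0.0774), but was with DESeq2 (0.0282) and without Het 1 (0.0458).

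**Figure D2:**
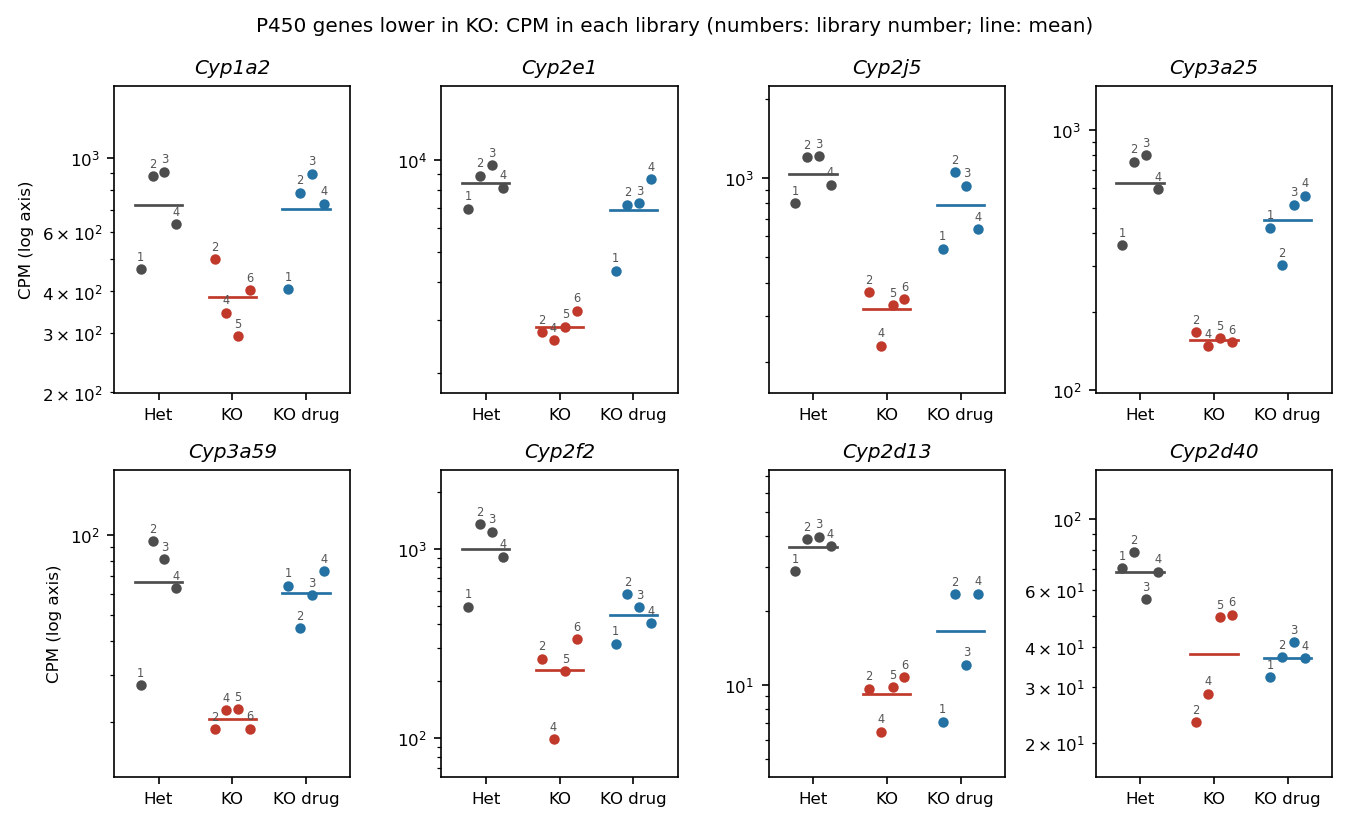
CPM on log axes (y axis, a separate scale for each gene) of 8 P450 genes called lower in KO, with 1 point per library labelled by its number and a line at the group mean. For Cyp2e1, Cyp2j5, Cyp3a25 and Cyp3a59 the 4 KO points lie below all Het and KO_drug points, whereas Cyp2d40 and Cyp2d13 stay low in KO_drug and Cyp1a2 overlaps between the groups.

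Of the 8 Cyp2d genes, 5 were called lower in KO, 1 was higher and 2 were not called. Cyp2d13 stood at 28.9, 38.9, 39.8 and 36.6 CPM in Het, at 9.67, 6.48, 9.83 and 10.8 in KO and at 7.11, 23.3, 12.1 and 23.4 in KO_drug, so Het lay above both knockout groups. It was lower in KO (log2 -1.97 ± 0.31, adjusted p = 0.000377) and in KO_drug vs Het (log2 -1.13 ± 0.31, adjusted p = 0.0182; 0.0569 without KO_drug 3). Cyp2d40 stood at 70.3, 78.9, 56.2 and 68.6 CPM in Het, at 23.2, 28.5, 49.4 and 50.4 in KO and at 32.1, 37.1, 41.4 and 36.9 in KO_drug. Het again lay above both knockout groups, and within KO the libraries KO 5 and KO 6 lay higher than KO 2 and KO 4. Its log2 changes from Het were -0.85 ± 0.22 in KO and -0.89 ± 0.22 in KO_drug (adjusted p = 0.00799 and 0.0116), and the first was -1.46 with KO 2 and KO 4 only.

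Smaller changes were found for the abundant Cyp2d9, the male-type testosterone hydroxylase, which ranged from 962 to 1832 CPM in Het and from 803 to 1079.9 in KO (log2 -0.70 ± 0.20, adjusted p = 0.015). Cyp2d26 (log2 -0.63 ± 0.22, adjusted p = 0.0339) and Cyp2d11 (-0.46 ± 0.16, adjusted p = 0.0383) were also called lower in KO, with overlapping groups, and both were called lower in KO_drug than in Het (-0.71 ± 0.22 and -0.51 ± 0.16). With total counts as library size the lower calls of Cyp2d9 (log2 -0.15), Cyp2d26 (-0.09), Cyp2d40 (-0.34) and Cyp2d11 (0.09) in KO vs Het were all lost. With KO 2 and KO 4 only, Cyp2d9 (adjusted p = 0.0613) and Cyp2d11 (0.0661) were not called. The KO vs Het call of Cyp2d11 was also lost without any 1 of Het 2, Het 3, Het 4, KO 2, KO 4, KO 5 or KO 6 (adjusted p from 0.0582 to 0.114), and that of Cyp2d26 without any 1 of Het 2, Het 3, Het 4, KO 2 or KO 4 (0.0555 to 0.0952). In KO_drug vs Het the call of Cyp2d11 was lost without any 1 of the 12 libraries but Het 1 (0.0517 to 0.126), and that of Cyp2d26 without any 1 of Het 2, Het 3, Het 4 or the 4 KO_drug libraries (0.0552 to 0.0992). Cyp2d10 ranged from 497 to 1077 CPM in Het, 496 to 719.6 in KO and 562 to 668 in KO_drug and was not called in any comparison, but without Het 1 it was lower than Het in KO (log2 -0.66, adjusted p = 0.00745) and in KO_drug (-0.66, 0.0131). As a sum, the 8 Cyp2d genes stood at 3323 CPM ± 906 in Het, 2205 ± 255 in KO and 2472 ± 242 in KO_drug, or 0.277% ± 0.0513, 0.268% ± 0.0180 and 0.238% ± 0.0188 of all counts. Hepatocyte markers were lower in KO as well (5 of 8, above), and Hnf4a in both knockout groups.

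Cyp2d12 was the Cyp2d gene that rose in KO. It stood at 4.02, 7.33, 6.03 and 5.61 CPM in Het, at 68.9, 35.8, 18.3 and 28.8 in KO and at 9.03, 11.5, 6.40 and 7.70 in KO_drug. Every KO library lay above every other library, with KO 2 the highest. It rose 6.60-fold in KO (log2 2.72 ± 0.36, adjusted p = 9.31e-05) and was lower in KO_drug than in KO (log2 -2.13 ± 0.35, adjusted p = 0.00203). With KO 2 and KO 4 only, the rise was log2 3.13.

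By mean FPKM, Cyp2a4 and Cyp2a5 rose from low or moderate levels to the places after Cyp2e1 and Cyp3a11 in both knockout groups. In KO 2 and KO 4, however, Cyp2a4 lay below Cyp2d9 (above). Cyp2a4, a steroid hydroxylase typical of female liver, stood at 53.3, 16.4, 31.8 and 28.9 CPM in Het, at 909.8, 698, 1922 and 1470.1 in KO and at 1583, 1380.5, 1685 and 1599 in KO_drug. Cyp2a5, the mouse coumarin hydroxylase, stood at 94.7, 104, 313 and 107 CPM in Het, at 1683, 1311, 1640.5 and 2141 in KO and at 2603, 1879.5, 2827 and 3202 in KO_drug. Neither gene's Het values overlapped those of a knockout group. The log2 changes in KO were 5.26 ± 0.41 and 3.45 ± 0.38 (adjusted p = 1.35e-06 and 2.63e-05), and in KO_drug vs Het 5.58 ± 0.41 and 4.09 ± 0.39. Without the Xist-positive KO 5 and KO 6 they were 4.57 and 3.21 in KO. Without Het 3, which stood apart with 313 CPM, the change of Cyp2a5 was 4.05 in KO and 4.68 in KO_drug. Neither was called between KO_drug and KO (log2 0.32 ± 0.34 and 0.63 ± 0.35, adjusted p = 0.541 and 0.221). The change of Cyp2a4 there was log2 1.0 with KO 2 and KO 4 only (adjusted p = 0.0723), and without Het 3 that of Cyp2a5 was called (0.63, adjusted p = 0.043).

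With the window printed above differing at 4 of 60 bases, reads of this pair can be hard to assign. Their sum is the firmer measure if each read was counted for a single gene, which is not stated. Cyp2a4 and Cyp2a5 together stood at 187 CPM ± 105 in Het, 2944 ± 780 in KO and 4190 ± 669 in KO_drug (SD, n = 4). Per length, Cyp2a5 exceeded Cyp2a4 by a ratio of 1.78 to 9.85 in Het, and the ratio was 0.854 to 1.88 in KO, with the lowest value in KO 5, and 1.36 to 2.0 in KO_drug.

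Cyp2a22 rose with them: it stood at 5.67, 9.51, 11.7 and 7.75 CPM in Het, at 17.7, 26.0, 45.0 and 52.7 in KO and at 43.1, 36.8, 40.1 and 40.3 in KO_drug. Both knockout groups lay above Het, with KO 5 and KO 6 above KO 2 and KO 4. Its changes from Het were log2 2.03 ± 0.30 in KO and 2.21 ± 0.31 in KO_drug (adjusted p = 0.000253 and 0.000218), and with KO 2 and KO 4 only the first was 1.27. KO_drug vs KO was not called (log2 0.18 ± 0.29), but with KO 2 and KO 4 only Cyp2a22 was higher in KO_drug (0.92, adjusted p = 0.0282). Its abundant near-copy Cyp2a12, a testosterone hydroxylase, ranged from 415 to 999.6 CPM in Het, 441 to 621 in KO and 439 to 665 in KO_drug and was not called in any comparison, but was lower in KO without Het 1 (log2 -0.65, adjusted p = 0.0223). The ratio of Cyp2a12 to Cyp2a22 in FPKM was 98.1 to 123.1 in Het, 15.7 to 37.8 in KO and 13.6 to 22.2 in KO_drug. Cyp2a12 and Cyp2a22 together stood at 727.0 CPM ± 268.3 in Het, 558.4 ± 88.25 in KO and 603.9 ± 91.56 in KO_drug. Cyp2a12 makes up most of this sum, so the sum cannot show the course of Cyp2a22, whose counts stay uncertain.

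Cyp2s1, an Ahr-responsive gene mostly of epithelia outside the liver, stood at 1.24, 0.260, 0.370 and 0.357 CPM in Het, at 5.60, 12.4, 19.3 and 16.1 in KO and at 12.9, 0.781, 1.27 and 3.29 in KO_drug. KO lay above Het throughout, and KO_drug 1 was the only KO_drug library at the level of KO. It rose in KO by log2 4.57 ± 0.85 (adjusted p = 0.0011) and in KO_drug vs Het by 3.03 ± 0.84 (adjusted p = 0.0208). Without Het 1 these were 5.32 and 3.78, and with KO 2 and KO 4 only the first was 3.94. The second call was lost without KO_drug 1 (log2 1.66, adjusted p = 0.0968) and without any 1 of Het 2, Het 3 or Het 4 (0.056 to 0.0625). Cholangiocyte, macrophage and T cell markers were higher in KO as well (above), and their part in the Cyp2s1 change was not tested.

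Cyp2g1, known from olfactory mucosa, was near the detection limit, at 0.361, 0, 0.317 and 0.102 CPM in Het, 1.47, 0.793, 1.66 and 1.56 in KO and 1.72, 1.88, 2.15 and 0.902 in KO_drug, with at most 57 counts in a library. Its Het libraries held 7, 0, 6 and 2 counts, so all 8 libraries that met the count limit were KO or KO_drug. Cyp2g1 was therefore a member only through the groups where it was high. It was called higher in KO (log2 2.79 ± 0.61, adjusted p = 0.00291) and in KO_drug than in Het (log2 3.06 ± 0.61, adjusted p = 0.00327). It lies between Cyp2b19 and Cyp2a5 on chromosome 7 (26808927 to 26821197) and overlaps another annotated gene.

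**Figure D3:**
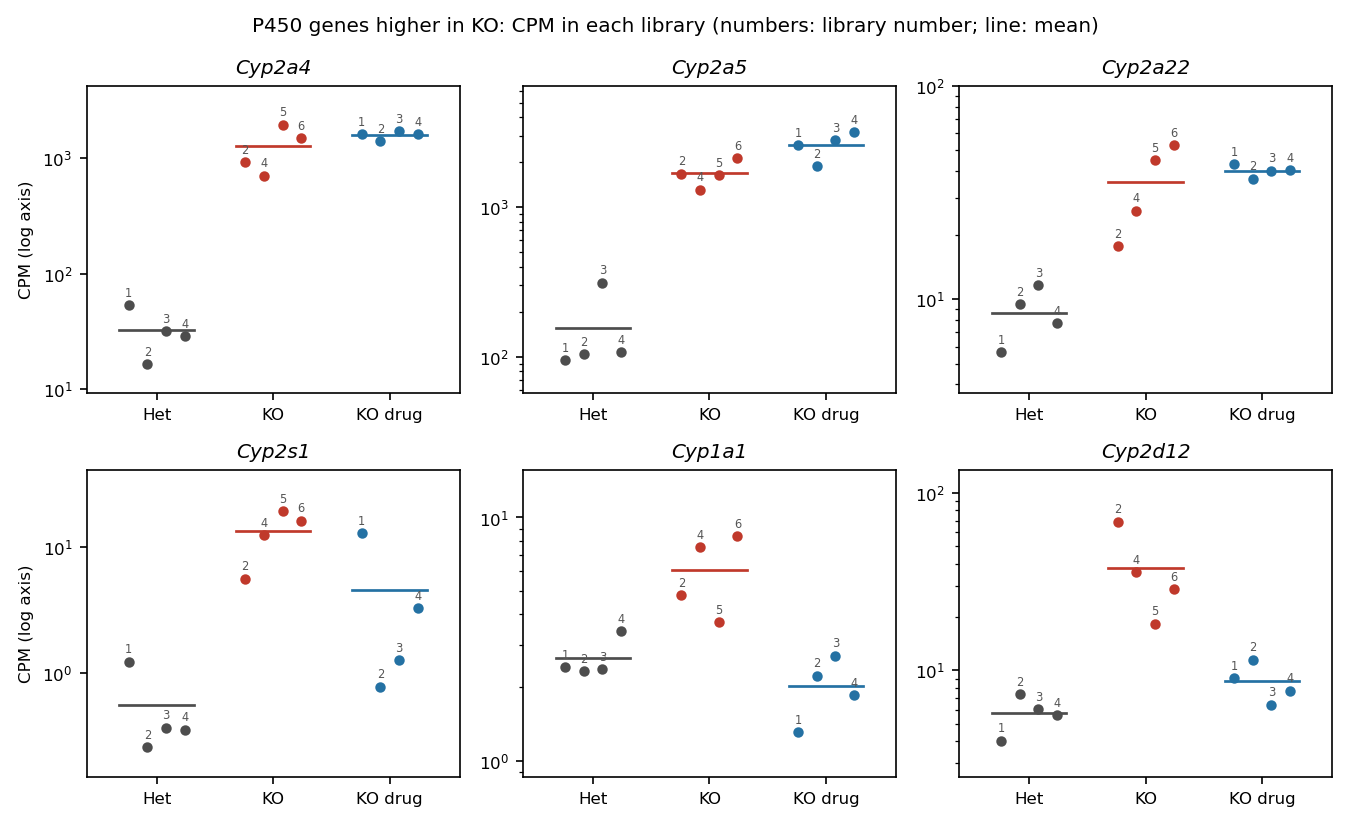
CPM on log axes (y axis, a separate scale for each gene) of 6 P450 genes called higher in KO, with 1 point per library labelled by its number and a line at the group mean. Cyp2a4, Cyp2a5 and Cyp2a22 lie above all Het points in KO and in KO_drug, Cyp1a1 and Cyp2d12 overlap Het in KO_drug, and for Cyp2s1 the library KO_drug 1 stands at 12.9 CPM above the other 3.

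With the agonist, Cyp3a11 had the highest mean FPKM, but it overlapped Cyp2e1 (above). Cyp3a11 is the main Cyp3a enzyme of adult mouse liver and a textbook PXR target. It stood at 2803, 4722, 7583 and 3614 CPM in Het, at 3056, 3498, 3019.9 and 3543 in KO and at 11931, 7825, 11237 and 10384 in KO_drug. Every KO_drug library lay above every other library, although KO_drug 2 and Het 3 came close. It was 3.15-fold higher than in KO (log2 1.66 ± 0.28, adjusted p = 0.00237) and 2.21-fold higher than in Het (log2 1.14 ± 0.27, adjusted p = 0.00937), and it was not called between KO and Het (log2 -0.51 ± 0.27; -0.70, adjusted p = 0.0366, without Het 1). Cyp2b10, the textbook CAR target, stood at 8.51, 24.4, 43.8 and 36.4 CPM in Het, at 44.8, 41.8, 31.7 and 55.3 in KO and at 172, 37.8, 222 and 181 in KO_drug. KO_drug 1, 3 and 4 lay above all other libraries, and KO_drug 2 lay within the range of KO. It was called higher in KO_drug than in KO (log2 1.82 ± 0.50, adjusted p = 0.0231) and than in Het (log2 2.44 ± 0.51, adjusted p = 0.00439). With total counts it was also higher in KO than in Het (log2 1.17, adjusted p = 0.0473). Its call against KO was lost without any 1 of KO 2, KO 4, KO 5, KO_drug 3 or KO_drug 4 (adjusted p from 0.0527 to 0.0681), with KO 2 and KO 4 only (0.0807) and with the deposited FPKM in limma (0.0789).

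KO_drug 2 was low in the same way for Por, the reductase that supplies electrons to these enzymes: Por stood at 69.3, 92.8, 180.1 and 178 CPM in Het, at 164, 235, 174 and 234 in KO and at 725, 207, 502 and 639 in KO_drug. Nr1i2, which encodes PXR, stood at 107, 69.5, 136 and 133 CPM in KO_drug against 56.9 to 73.4 in KO, again with KO_drug 2 lowest. The changes in KO_drug vs KO were log2 1.36 ± 0.37 for Por (adjusted p = 0.022) and 0.77 ± 0.21 for Nr1i2 (adjusted p = 0.0225). Nr1i3, which encodes CAR, was lower in KO than in Het (log2 -0.90 ± 0.26, adjusted p = 0.0155) and not called in KO_drug vs KO (log2 0.52 ± 0.26). It stood at 27.5, 28.5, 71.7 and 39.7 CPM in KO, highest in KO 5, and with KO 2 and KO 4 only Nr1i3 was called higher in KO_drug vs KO and Nr1i2 was not. The carboxylesterase gene Ces2a, another CAR and PXR target, stood at 1678, 1221, 1559.8 and 1395 CPM in KO_drug, against 130.2 to 266 in KO, with no low value in KO_drug 2 of the kind seen for Cyp2b10. Of 10 CAR and PXR targets outside the P450 genes, 5 were higher in KO_drug than in KO (Ces2a, Por, Slco1a4, Ugt1a1 and Abcc2), with a list median of log2 1.01 against -0.02 for all genes. These 5 were also called with total counts, and 3 of them (Ces2a, Slco1a4 and Ugt1a1) with KO 2 and KO 4 only. In KO vs Het, 3 of them were lower (Ces2a at -1.44 ± 0.26, Slco1a4 at -1.5 ± 0.29, and Ugt1a1) and 2 higher (Abcb1a at 3.33 ± 0.27, and Gadd45b).

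**Figure D4:**
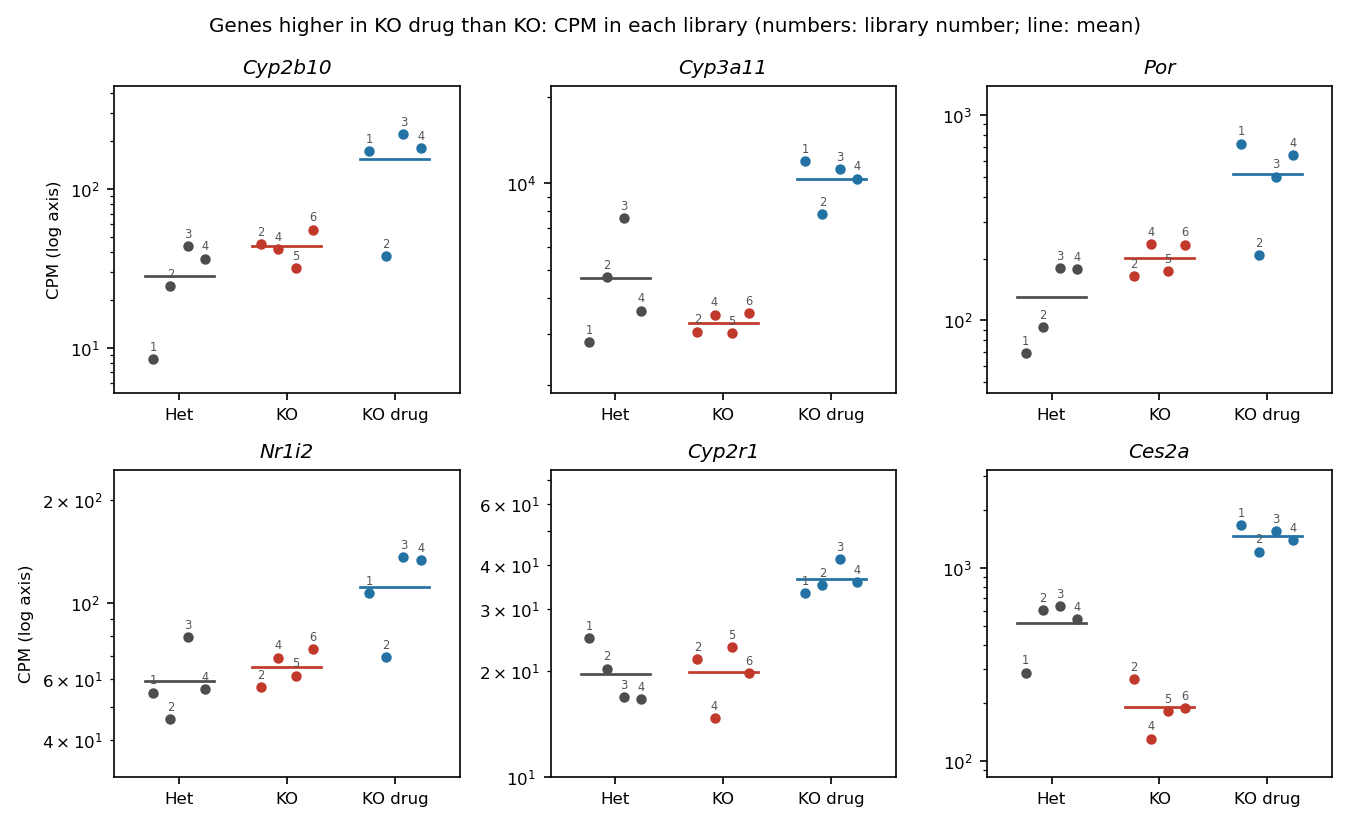
CPM on log axes (y axis, a separate scale for each gene) of 3 P450 genes and of Por, Nr1i2 and Ces2a, all called higher in KO_drug than in KO, with 1 point per library labelled by its number and a line at the group mean. KO_drug 2 lies at the level of the KO group for Cyp2b10, Por and Nr1i2 but not for Cyp2r1 or Ces2a.

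Cyp2r1, the vitamin D hydroxylase of liver, was higher in KO_drug than in both other groups. It stood at 24.8, 20.3, 16.9 and 16.6 CPM in Het, at 21.6, 14.7, 23.4 and 19.7 in KO and at 33.3, 35.2, 41.7 and 35.8 in KO_drug. KO_drug lay above both other groups without overlap, and it was higher than KO by log2 0.88 ± 0.16 (adjusted p = 0.00373) and than Het by 0.89 ± 0.16 (adjusted p = 0.00172). KO differed from Het by log2 0.02 ± 0.16, and by 0.51 (adjusted p = 0.0317) with total counts. Cyp2d22, a Cyp2d gene of many tissues, stood at 77.3 to 179.5 CPM in Het, 99.97 to 132 in KO and 161 to 219.8 in KO_drug and was higher in KO_drug than in KO (log2 0.72 ± 0.21, adjusted p = 0.0326). With total counts it was higher in KO_drug than in Het as well (log2 0.66, adjusted p = 0.0127). The call against KO was lost with total counts (log2 0.38, adjusted p = 0.1) and without any 1 of KO 2, KO 4, KO 5, KO_drug 2, KO_drug 3 or KO_drug 4 (0.0515 to 0.0958), and with KO 2 and KO 4 only (0.0742). Cyp2j9, a low-level relative of Cyp2j5, stood at 2.68, 2.44, 3.86 and 4.18 CPM in Het, 1.76, 2.01, 1.84 and 1.69 in KO and 2.02, 3.07, 5.62 and 6.74 in KO_drug (log2 1.26 ± 0.34, adjusted p = 0.0216 in KO_drug vs KO). It was not called with total counts (log2 0.91, adjusted p = 0.061), with KO 2 and KO 4 only (0.0793) or without any 1 of KO 2, KO_drug 3 or KO_drug 4 (0.0527 to 0.073). Cyp2j6 (73.9 to 132, 118 to 137 and 77.1 to 146 CPM in Het, KO and KO_drug), the fatty acid hydroxylase Cyp2u1 (32.2 to 66.2, 36.2 to 71.9 and 28.0 to 48.1) and Cyp3a13 (115 to 231, 131 to 202 and 162 to 270.3) were not called in any comparison. With total counts, Cyp2j6 (log2 0.84, adjusted p = 0.00286) and Cyp2u1 (0.84, adjusted p = 0.00783) were higher in KO than in Het. Cyp2u1 was lower in KO_drug than in KO with total counts (-1.05, adjusted p = 0.0056), with DESeq2 (-0.72, 0.0268) and without any 1 of Het 2, KO 4 or KO_drug 2 (0.0267 to 0.0466).

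Some female-type genes separated the KO libraries from each other. Cyp2a4, also female-type, was high in every knockout library, at 698.5 to 1922 CPM in KO and 1380 to 1685 in KO_drug. Its Het libraries reached at most 53.3 CPM. Cyp3a41a stood at 2.78, 0.623, 1.06 and 0.816 CPM in Het, at 1.29, 19.0, 1288 and 317 in KO and at 3.23, 1.98, 1.76 and 1.75 in KO_drug. KO 5 and KO 6, which carried Xist, were far above the rest, KO 4 was above every Het library, and KO 2 lay within the range of Het. The group change of log2 8.26 ± 1.62 (adjusted p = 0.00153) became 6.41 without KO 5, 8.92 without Het 1 and 2.87 (adjusted p = 0.0149) with KO 2 and KO 4 only. The change in KO_drug vs KO of -7.53 ± 1.56 (adjusted p = 0.00596) became -5.69 without KO 5 and -2.16 (adjusted p = 0.0688) with KO 2 and KO 4 only. Cyp3a16 stood at 0.464, 1.09, 1.43 and 1.22 CPM in Het, at 0.821, 1.26, 17.7 and 5.15 in KO and at 2.47, 15.8, 1.54 and 2.65 in KO_drug. Its call in KO (log2 2.57 ± 0.97, adjusted p = 0.0493) rested on KO 5 and KO 6: the log2 change was 1.19 without KO 5 (adjusted p = 0.289) and -0.10 with KO 2 and KO 4 only. That call was also lost without any 1 of Het 1, Het 2, Het 3, Het 4, KO 6, KO_drug 1 or KO_drug 4 (adjusted p from 0.0512 to 0.115). The high value in KO_drug 2 came without Xist, which stood at 0.156 CPM there. Cyp3a44 was highest in KO 5 at 40.5 CPM, ranged from 8.97 to 23.2 CPM in Het and 22.4 to 33.2 in KO_drug, and was not called in any comparison. Its log2 change in KO_drug vs KO was 0.52 ± 0.38, and it was called higher without KO 5 (1.06, adjusted p = 0.0282) and with KO 2 and KO 4 only (1.4, 0.0141). Cyp3a44 was also higher in KO_drug vs Het under these settings (1.01, adjusted p = 0.0201, and 0.99, 0.019), with DESeq2 (1.02, 0.0323), without Het 3 (1.31, 0.0395) and with total counts (1.23, 0.027), and in KO vs Het with total counts (1.05, 0.0255). For Cyp3a16, KO_drug vs Het was called without KO 5 (log2 2.41, adjusted p = 0.049) and with KO 2 and KO 4 only (2.39, 0.0328).

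Genes of the same kind that missed the count limit showed the same libraries. Cyp2b9 stood at 0.176, 0, 65.0 and 13.9 CPM in KO, Cyp2b13 at 0, 0, 30.1 and 6.25 and Cyp3a41b, the near-copy of Cyp3a41a, at 0, 1.17, 77.1 and 8.95, in the order KO 2, 4, 5 and 6. In Het and KO_drug these 3 genes had 5 counts in all, of Cyp2b9 in Het 3. Cyp2b23 and Cyp3a57 differed from this pattern: each had counts in all 4 KO libraries (0.233 to 0.929 and 0.253 to 0.322 CPM) and 0 counts in Het and KO_drug, where 0 counts in a library allow up to 3 counts. Female-biased genes outside the P450 genes were higher in KO for 3 of 6 tested genes (Slc22a27, Prom1 and Slc22a26), with sums of 2.34 to 3.54 CPM in Het, 6.74 to 216 in KO and 9.55 to 25.0 in KO_drug. With KO 2 and KO 4 only, 2 of the 6 were higher (Slc22a27 and Prom1). Male-biased genes were lower in KO for 8 of 13 and higher for 1 (Serpina12), and in KO_drug vs Het lower for 7; both counts of lower genes held with total counts, and with KO 2 and KO 4 only 7 were lower in KO. Mup7, a male-biased urinary protein gene, stood at 14957, 26622, 20857 and 19252 CPM in Het, at 1483, 1016, 447 and 1846 in KO and at 1807, 5429.9, 3062 and 3413 in KO_drug, so it was also low in KO 2 and KO 4, which had no Xist counts. Ghr, the growth hormone receptor, was lower in KO (log2 -1.45 ± 0.21, adjusted p = 0.000171), as were Stat5b, Igf1 and Bcl6, 4 of the 8 genes of growth hormone signalling, whereas with total counts Ghr was lower and Stat5a higher. Against Het, 5 of those 8 were lower in KO_drug (Ghr, Stat5b, Igf1, Bcl6 and Igfals).

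**Figure D5:**
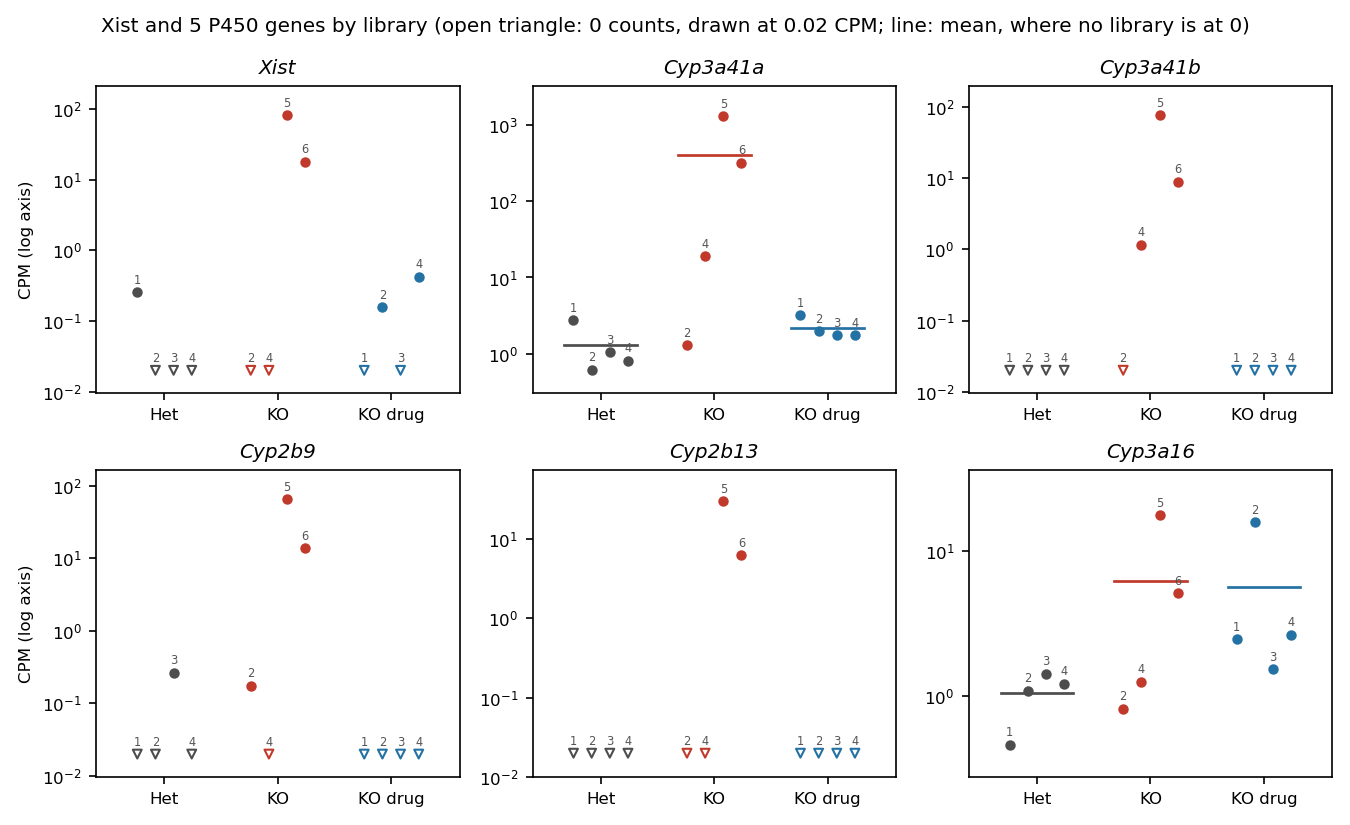
CPM on log axes (y axis, a separate scale for each gene) of Xist and of 5 female-type or perinatal P450 genes, with 1 point per library labelled by its number, open triangles for 0 counts drawn at 0.02 CPM, and a line at the group mean where no library is at 0. KO 5 and KO 6 hold the highest values of Xist, Cyp3a41a, Cyp3a41b, Cyp2b9 and Cyp2b13, and for Cyp3a16 the library KO_drug 2 is second to KO 5.

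Of 6 partners that pass electrons to P450 enzymes or themselves bind heme, 3 fell in KO with TMM scaling. They were the cytochromes b5 Cyb5b (log2 -1.22 ± 0.20, adjusted p = 0.000477) and Cyb5a (log2 -0.87 ± 0.17), and the heme-binding Pgrmc2 (-0.51 ± 0.14). Between KO_drug and KO 5 of the 6 rose (Cyb5a, Cyb5b, Cyb5r3, Pgrmc2 and Por), with a list median of log2 0.94 against -0.02 for all genes. Their sums were 3295 to 4306 CPM in Het, 2479 to 2908 in KO and 4004 to 4483 in KO_drug, so KO lay below both other groups. With total counts, Cyb5b alone was lower in KO and Por and Pgrmc1 were higher, and in KO_drug vs KO 3 of the 6 rose (Cyb5b, Pgrmc2 and Por). Of 12 genes of heme synthesis and breakdown, 5 were lower in KO, among them Urod (log2 -0.66 ± 0.11), Cpox and Fech, and 2 were higher, the heme oxygenase Hmox1 and the biliverdin reductase Blvrb (0.78 ± 0.16). With the agonist 4 of the 12 were higher than in KO, Cpox, Fech and Urod among them. The set of called genes depends on the scaling: with total counts, 6 of the 12 were called in KO vs Het and all were higher (Alad, Blvra, Blvrb, Hmox1, Ppox and Uros), and in KO_drug vs KO 2 were lower (Blvra and Hmox2). Alas1, the first and limiting enzyme of heme synthesis, varied widely within Het (261, 842, 109 and 239 CPM) and was not called in any comparison.

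Of 17 tested transcriptional regulators of P450 genes, 8 were lower and 1 was higher (Nfe2l2) in KO than in Het. The hepatocyte factors Hnf4a (log2 -0.93 ± 0.13, adjusted p = 0.000194) and Cebpa (log2 -1.36 ± 0.27, adjusted p = 0.00173) were among those lower, as was Rxra, the shared partner of CAR, PXR and LXR (log2 -0.81 ± 0.13, adjusted p = 0.00035). Against KO, 2 of the 17 were higher in KO_drug (Nr1i2 and Ppara). Against Het, Hnf4a, Rxra and Nr1h4 were lower in KO_drug, and Nr1i2 and Nfe2l2 were higher. With total counts, 3 were lower in KO (Cebpa, Hnf4a and Nr0b2) and 5 higher (Nfe2l2 and Nr1i2 among them), and Nr1i2 was called in KO_drug vs Het but not in KO_drug vs KO. The list medians with TMM scaling were log2 -0.54, 0.36 and -0.22 in the 3 comparisons, against 0.02, -0.02 and 0 for all genes.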

How the data were processed

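Liver RNA was made into libraries with a stranded total RNA kit, per the labels' protocols. FastQC 0.11.7, StringTie 2.1.3b and mm10 are named in the submitters' processing notes; no source used here states the aligner, the annotation or whether counting used the strand. As deposited by the authors, the table holds a read count per gene and library that is not normalized, per the file headers. They also deposited FPKM for the same genes, per the file headers. Values in 3 unnamed columns were not used.

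The members and lists were chosen with earlier results of these data known. Counts were tested in edgeR 4.0.16 (R 4.3.3): filterByExpr (minimum count 10, total 15; 13379 genes kept), TMM scaling, 1 fit of 12 libraries with group means, quasi-likelihood tests, two-sided, with Benjamini-Hochberg adjustment over all tested genes. The procedure was tested on simulated data. Where 4 values of a group lay wholly apart from 4 of another, an exact two-sided permutation test gave p = 0.0286, the smallest possible. Nothing states that libraries are separate litters or cages, so p-values measure the spread between these libraries. CPM compares libraries within a gene and FPKM compares genes. Alternatives were RLE scaling, total counts, other filters, DESeq2 1.42.0, limma 3.58.1 on log2(FPKM + 0.1), a block for the library number, only the compared groups, KO 2 and KO 4 only, and each library left out.

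Named are all members, and of each list the 3 genes with the smallest adjusted p in KO vs Het, with Ahr, Nr1i2, Nr1i3, Por and Alas1. Other list genes are named where few passed, after their values were seen; results of 2 list genes are not reported here. Depth was 16535938 to 28329751 counts, so 1 count is 0.0292 to 0.0551 CPM; floors for 0 counts cover counting error only. Positions and promoters are from RefSeq GRCm38.p6 and coding sequences from GENCODE M21, matched for 32, 27 and 31 members.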

Additional observations from a re-analysis of the deposited data

Results flagged for a closer look

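In 6 of 96 sets of 4 libraries (32 genes in 3 groups), 1 library lay far from the other 3 by Dixon's test; chance alone marks about 1 set in 20. In Het, Cyp1a1 stood at 3.416 CPM in Het 4 against 2.338 to 2.423 in the others, and Cyp2a5 at 312.6 CPM in Het 3 against 94.74 to 107.1. Het 1 was high for Cyp2s1 (1.237 CPM against 0.2598 to 0.3701) and low for Cyp3a13 (114.6 CPM against 218.2 to 230.8). In KO_drug, Cyp3a16 stood at 15.78 CPM in KO_drug 2 against 1.544 to 2.653, and Cyp3a41a at 3.228 CPM in KO_drug 1 against 1.751 to 1.979. No set of KO libraries was marked this way. The test looks for 1 library apart and can miss a set such as that of Cyp3a41a, where KO 5 and KO 6 both stood high.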

How the results depend on the processing

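Of 46 calls, 30 were kept under each of the 21 alternatives, 16 were lost under at least 1, and 2 of these also changed sign (Cyp2d11 and Cyp3a16 in KO vs Het). DESeq2 lost none of the 46, but a call for which it gave no adjusted p would have been counted as kept. The 30 follow the same rule. The counts of genes called in KO vs Het became 15 higher and 6 lower with total counts (51.5% and 3.44% of all genes), and 15 and 6 with the deposited FPKM (53.4% and 3.39%). In KO_drug vs KO they became 6 and 6 with FPKM (2.77% and 33% of all genes). In KO_drug vs Het 3 were lower with total counts (3.73% of all genes) and 2 with FPKM (3.87%). With 1 library left out, the count higher in KO_drug vs KO ran from 6 to 11 and the count lower in KO_drug vs Het from 1 to 8. The labels do not state that library numbers mark pairs, so the numbers were not taken as pairs, and KO 5 and KO 6 have no partner in Het. Libraries of equal number correlated by -0.0115 to 0.119 in their deviations. No value was computed for libraries of unequal number, so these correlations cannot show whether pairs were present. With a block for the number, 8 genes were higher and 10 lower in KO vs Het, 11 and 3 in KO_drug vs KO, and 9 and 4 in KO_drug vs Het.

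Signs of the following log2 changes turned, and the cause was not tested. In KO vs Het with total counts and with FPKM, in that order, they were 0.10 and 0.15 for Cyp2a12, 0.08 and 0.11 for Cyp2d10, 0.09 and 0.11 for Cyp2d11, 0.28 and 0.33 for Cyp2d22, 0.05 and 0.12 for Cyp3a11, and 0.25 and 0.28 for Cyp3a13. In KO_drug vs KO they were -0.23 and -0.25 for Cyp2a12, -0.15 and -0.05 for Cyp2a22, -0.01 and -0.03 for Cyp2d9, -0.07 and -0.10 for Cyp2g1, and -0.01 for Cyp2a4 with total counts. In KO_drug vs Het they were 0.17 and 0.14 for Cyp1a2 and 0.10 and 0.16 for Cyp3a59. With the block, KO vs Het gave -0.06 for Cyp2r1, -0.02 for Cyp2u1, -0.59 for Cyp3a16 and -0.18 for Cyp3a44, and KO_drug vs KO gave 0.28 for Cyp2d10, 0.14 for Cyp2d11, 0.32 for Cyp2d26, 0.57 for Cyp2d40 and 2.6 for Cyp3a16. With KO 2 and KO 4 only, KO vs Het gave -0.17 for Cyp2r1, -0.04 for Cyp2u1, -0.10 for Cyp3a16 and -0.41 for Cyp3a44, and KO_drug vs KO gave 0.25 for Cyp2d10, 0.04 for Cyp2d11, 0.26 for Cyp2d26, 0.55 for Cyp2d40, 0.02 for Cyp2j6 and 2.48 for Cyp3a16. With only the 2 groups compared, Cyp2r1 was -0.03 in KO vs Het. With 1 library left out, the values ran from -0.07 to 0.15 for Cyp2r1 and from -0.05 to 0.79 for Cyp3a44 in KO vs Het. They ran in KO_drug vs KO from -0.04 to 0.43 for Cyp2a22, -0.10 to 0.08 for Cyp2d10, -0.17 to 0.03 for Cyp2d26, -0.22 to 0.12 for Cyp2d40, -0.25 to 0.03 for Cyp2j6 and -1.49 to 1.22 for Cyp3a16. In KO_drug vs Het they ran from -0.20 to 0.15 for Cyp1a2, -0.18 to 0.46 for Cyp1b1, -0.03 to 0.28 for Cyp3a13 and -0.39 to 0.07 for Cyp3a59. Depth limits Cyp1b1, Cyp2g1 and Cyp2s1, which had under 10 counts in 3 or 4 libraries.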

Other observations

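Genes that mark the zones of the liver lobule, outside the P450 genes, were also read. Of 12 pericentral genes, 2 were lower in KO than in Het, the glutamine synthetase Glul (log2 -1.40 ± 0.23, adjusted p = 0.000478) and the transcription factor Tbx3 (log2 -0.83 ± 0.22), and 1 was higher, the ammonium transporter Rhbg (1.79 ± 0.27). In KO_drug vs KO, 2 of the 12 were higher (Tbx3 at 1.59 ± 0.22, and Oat) and 3 lower (Rhbg at -1.56 ± 0.27, Lect2 and Nkd1). Of 9 periportal genes, 5 were lower in KO, among them the urea cycle enzymes Asl (-0.95 ± 0.20) and Arg1 (-0.72 ± 0.18), and 1 was higher, Cdh1 (1.58 ± 0.29), which cholangiocytes express too. In KO_drug vs KO, 4 of the 9 were higher (Arg1, Asl, Ass1 and Cps1) and Cdh1 was lower. The list medians in KO vs Het were log2 -0.42 for the pericentral and -0.75 for the periportal genes, against 0.02 for all genes. With total counts, 1 pericentral gene was lower in KO (Glul) and 3 higher (Axin2, Lect2 and Rhbg), and of the periportal genes Cdh1 alone was called.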
